A study of Mus musculus with 29 samples.

Results

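Mouse embryonic stem (ES) cells carrying the first of a pair of short hairpin RNAs against Dax1 were compared with their control cells across all genes and repeat elements that had been counted. The comparison used 4 of the 29 samples of the series, 2 libraries with Dax1 hairpin 1 and 2 control libraries, out of 20 RNA-seq libraries. They were found by their titles, and hairpin 1 was taken in place of hairpin 2 because its knockdown of Dax1 was known to be the stronger. Per the labels, the hairpin 1 cells are a Dax1 knockdown and the control cells are wild type, both are ES cells of the 129/Ola strain, untreated, and both were grown on gelatin in medium with 15% serum. The 2 libraries of a second hairpin against Dax1, hairpin 2, share these controls and entered the same fit. A knockdown of both Dax1 and Dux, with its own control, gave 4 more libraries. What the control cells carried, and whether replicates were separate cultures or clones, is not given in the labels, so p-values measure the spread between these libraries, which may be technical.

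Dax1 is the common name of Nr0b1, an X-linked gene for an orphan nuclear receptor that lacks the usual DNA-binding domain and acts mostly as a corepressor of other nuclear receptors. In ES cells it is part of the pluripotency network, where it binds OCT4 and the receptors ESRRB and LRH-1, and in the adrenal gland and gonad it holds back steroid synthesis genes. The 2-cell-like state is a rare, reversible state of ES cells in which transcripts of the 2-cell embryo are made. Its genes include the Zscan4 cluster and the endogenous retrovirus MERVL with its promoter repeat MT2_Mm, and the homeobox factor DUX switches many of them on.

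The targeted gene was read first. Nr0b1 had 897 and 857 counts in the hairpin 1 libraries, 1031 and 1008 in the hairpin 2 libraries and 2242 and 2179 in the controls. As CPM, counts relative to a library total scaled by edgeR's TMM factors, these were 62.6 and 58.2 with hairpin 1, 77.5 and 77.7 with hairpin 2 and 149.9 and 158 in controls. Both hairpin 1 libraries lay below both controls, with a log2 fold change of -1.35 ± 0.06 (standard error, SE), which left 39.3% of the control level. The log2 difference from hairpin 2 was -0.36, and both values describe the choice of hairpin 1 and are no finding. In the double knockdown Nr0b1 had 254 and 319 counts (19.9 and 24.3 CPM), against 680 and 444 counts (49.0 and 33.3 CPM) in its controls, so those controls were below the hairpin 1 libraries in CPM, a level set across separate tables. The ES cell markers were present in every library: Pou5f1, the gene for OCT4, had 1795 and 1729.5 CPM with hairpin 1 and 1890.3 and 1901 CPM in the controls.

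The hairpin 1 and control libraries held 13958105 to 15139518 counts each, of which 5.02% to 5.58% fell on repeat elements. The libraries also differed in ways that the labels do not name. Transcripts of 6 Y-linked genes summed to 147 and 156 CPM with hairpin 1, to 52.9 and 63.2 CPM with hairpin 2, and to 5.22 and 4.35 CPM in the controls. Ddx3y, a Y-linked RNA helicase gene, had 723 and 817 counts with hairpin 1 against 7 and 7 in the controls. On chromosome 1, 355 of 518 genes were called lower in hairpin 1 cells, and the median log2 fold change was -0.34. On chromosome 19 it was -0.29, with 219 of 322 genes lower, while the medians of the other autosomes and of X lay between -0.06 and 0.00. The same chromosomes stood apart with hairpin 2, with medians of -0.18 and -0.27. The part of these differences in the results was not tested, but each count was repeated without the genes of chromosomes 1, 19 and Y.

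**Figure D1:**
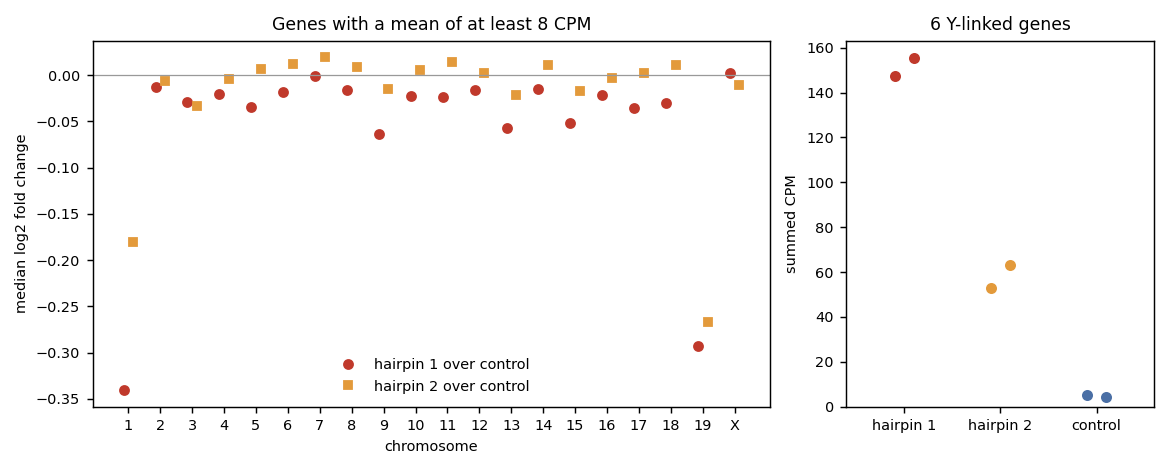
Left, median log2 fold change over control (vertical axis) of the genes of each chromosome with a mean of at least 8 CPM, for hairpin 1 (circles) and hairpin 2 (squares). Right, summed CPM of 6 Y-linked genes in each library. Chromosomes 1 and 19 lie below all others under both hairpins, and the Y-linked sum is at least 147 CPM with hairpin 1 and at most 5.22 CPM in the controls.

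A gene or element was called changed at an edgeR adjusted p under 0.05, over all genes and elements tested. With hairpin 1, 3193 of 14017 tested genes (22.8%) were higher and 3066 (21.9%) lower than in the controls. Among 827 tested elements, 110 (13.3%) were higher and 75 (9.07%) lower. Without the genes of chromosomes 1, 19 and Y the counts were 2811 genes higher and 2646 lower. Large changes ran mostly upwards: 1160 genes were at least 2-fold higher and 233 at least 2-fold lower, and at 8-fold or more there were 155 and 4. Of the genes called higher, 47 had 0 control counts and 59 had 1 to 3, so the sizes of those rises are uncertain. Of the genes called lower, 0 had no hairpin 1 counts. In 6254 of the 6259 called genes, both hairpin 1 libraries lay beyond both controls. The call on these same libraries largely sets that in advance, so it is no separate support. With such a share of all genes called, the counts within gene lists below are read against 22.8% higher and 21.9% lower, and against a median log2 fold change of 0.01 over all tested genes.

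The genes that rose most were those of the 2-cell embryo. Of 43 tested genes in a list of 2-cell genes, 41 were higher with hairpin 1 and none was lower, and their median log2 fold change was 8.08. That median is 6.81 when the 13 members with 0 counts in both controls are set at a lower bound. Those 13 passed the expression filter only through the hairpin libraries and could only be called higher. The count of 41 is in that part set in advance. Zfp809 and Rnf168 were the members that did not pass. Another 11 members were too low to test, at 0 to 12 counts in any of the 4 libraries. The summed level of the whole list was 1131 and 1096 CPM with hairpin 1, 587 and 594 CPM with hairpin 2, and 196 and 203 CPM in the controls.

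Dux, the multicopy homeobox gene that drives this programme, had 49 and 54 counts in the hairpin 1 libraries, 14 and 26 with hairpin 2 and none in either control. Against a floor of 3 counts over the control group it was at least 34.0-fold higher with hairpin 1 (adjusted p = 9.13e-09, edgeR). The Zscan4 genes encode zinc finger proteins with a SCAN domain, linked to telomere lengthening in ES cells. Zscan4c had 918 and 896 counts with hairpin 1, 290 and 361 with hairpin 2 and 1 and 0 in the controls, a ratio of hairpin 1 to control of 1796-fold (95% interval 322 to 70986), which covers counting error only. Zscan4d had 1100 and 1026 counts with hairpin 1, 331 and 332 with hairpin 2 and 1 and 2 in the controls, a ratio of 702-fold (95% interval 239.8 to 3405). Zscan4f had 1538 and 1616 counts with hairpin 1, 531 and 531 with hairpin 2 and 4 and 2 in the controls, with a log2 fold change of 8.96 ± 0.17 (SE; edgeR adjusted p = 5.61e-25). In each of them the groups stood in 1 order without overlap, hairpin 1 highest and control lowest. The Zscan4 copies are near-identical, so how reads were divided among them is uncertain.

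The same order held for Zscan4a and Zscan4b, and Zscan4b had 1053 and 1139 counts with hairpin 1, 351 and 321 with hairpin 2 and 1 and 1 in the controls. Usp17lc, Usp17le and Usp17la belong to a family of deubiquitinase genes on chromosome 7. Usp17le had 497 and 474 counts with hairpin 1 and 1 and 1 in the controls, and Usp17lc had 174 and 165 with hairpin 1 and none in the controls, at least 112-fold higher. Zfp352, a zinc finger gene of the 2-cell embryo, had 52 and 53 counts with hairpin 1, 20 and 16 with hairpin 2 and none in the controls, at least 34.7-fold higher with hairpin 1. Tcstv3 had 45 and 36 counts with hairpin 1 and none in the controls, at least 26.7-fold higher, and Tcstv1 had 13 and 19 and none, at least 10.6-fold higher. With hairpin 2, Tcstv1 had 16 and 7 counts, overlapping hairpin 1, and Tcstv3 had 30 and 14, below it; neither difference between the hairpins passed (adjusted p = 0.655 and 0.12, edgeR).

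The largest rises by the rule used for naming genes were in these families and in 4 other genes. Tmem92, a membrane protein gene of the 2-cell list, had 86 and 101 counts with hairpin 1 and none in the controls, at least 61.7-fold higher. Tdpoz3, of a TRAF and POZ domain family, had 66 and 63 with hairpin 1 and none in the controls, at least 42.6-fold higher. BB287469, related to translation initiation factor 1A, had 258 and 247 with hairpin 1 and 0 and 1 in the controls. Dcc, the gene for the netrin receptor of axon guidance, is outside the 2-cell list and had 63 and 58 counts with hairpin 1 and none in the controls, at least 39.9-fold higher. Gm6763, the 2-cell list gene with 1098 and 1057 counts with hairpin 1 and 2 and 0 in the controls, had the same counts in every library as Gm21312, so the 2 are not separate observations.

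Promoters of Zscan4b, Zscan4c, Zscan4d, Zscan4f and BB287469 are shown as examples from the largest rises. Each run holds the 250 bases before the annotated start, 5′ to 3′ on the gene's strand, from RefSeq on GRCm38.p6. Capitals mark the core of the DUX motif (TGATTNAAT, or its reverse complement) and the TATA box TATAAA, which do not overlap in these runs. The examples do not stand for all large rises: windows of Usp17lc and Usp17la, also among them, held no DUX core and are not shown. The windows were Zscan4b at chr7:10905051-10905300 (minus strand), Zscan4c at chr7:11005495-11005744 (plus), Zscan4d at chr7:11166149-11166398 (minus), Zscan4f at chr7:11397665-11397914 (plus) and BB287469 at chr12:87816327-87816576 (plus).
Zscan4b: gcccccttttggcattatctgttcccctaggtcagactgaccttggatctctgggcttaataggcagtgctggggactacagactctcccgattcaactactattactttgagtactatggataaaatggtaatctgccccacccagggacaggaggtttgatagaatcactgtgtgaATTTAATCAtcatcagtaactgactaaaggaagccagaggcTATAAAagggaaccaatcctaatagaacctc
Zscan4c: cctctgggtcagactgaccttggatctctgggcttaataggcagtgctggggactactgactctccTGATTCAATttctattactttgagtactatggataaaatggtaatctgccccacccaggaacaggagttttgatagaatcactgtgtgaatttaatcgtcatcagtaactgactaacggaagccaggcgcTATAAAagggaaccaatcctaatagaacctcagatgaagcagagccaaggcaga
Zscan4d: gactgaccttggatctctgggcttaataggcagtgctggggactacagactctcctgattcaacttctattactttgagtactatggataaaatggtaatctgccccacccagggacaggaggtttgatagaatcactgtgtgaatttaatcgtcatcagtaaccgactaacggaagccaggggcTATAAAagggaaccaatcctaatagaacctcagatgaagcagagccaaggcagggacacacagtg
Zscan4f: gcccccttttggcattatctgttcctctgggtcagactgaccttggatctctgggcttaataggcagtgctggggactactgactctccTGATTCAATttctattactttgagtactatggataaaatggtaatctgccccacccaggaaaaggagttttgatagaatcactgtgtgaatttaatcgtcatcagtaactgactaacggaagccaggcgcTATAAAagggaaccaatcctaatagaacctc
BB287469: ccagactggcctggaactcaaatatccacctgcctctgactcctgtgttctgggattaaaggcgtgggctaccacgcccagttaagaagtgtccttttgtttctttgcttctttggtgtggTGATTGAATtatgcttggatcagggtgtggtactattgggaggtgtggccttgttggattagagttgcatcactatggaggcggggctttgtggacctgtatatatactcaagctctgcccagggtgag

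Searched on both strands of windows from 250 bases before to 50 bases after the start, the DUX core occurred in 6 of 21 windows of called 2-cell genes (28.6%). It occurred in 0.307% of 13339 windows of tested genes, in 7.62% of 105 windows of genes called more than 8-fold higher, and in 0.197% of 3051 windows of genes called lower. The TATA box occurred in 8 of the 21 2-cell windows (38.1%) and in 7.03% of windows of tested genes. The third motif searched, TNAAGGTCA of the NR5A and ESRR receptors, was in none of the 21 2-cell windows and in 0.742% of windows of tested genes. It was also in none of 34 windows of called-lower naive pluripotency genes. These are matches to letters in a fixed window. The 6 windows with the DUX core were those of Zscan4b, Zscan4c, Zscan4f, Gm4027, BB287469 and AF067061. The Zscan4 promoters are much alike, so these windows are not separate observations. Zscan4b, Zscan4c, Zscan4f and BB287469 are also among the genes more than 8-fold higher, so that share is not separate from the 2-cell share. RefSeq windows were found for 19 of the 41 called 2-cell genes, and 1 gene can have several windows.

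The retrovirus MERVL rose with the 2-cell genes. MERVL-int, its internal part, had 1119.9 and 1149.6 CPM with hairpin 1, 529 and 592 CPM with hairpin 2 and 108 and 110.5 CPM in the controls. Its log2 fold change with hairpin 1 was 3.38 ± 0.05 (SE; edgeR adjusted p = 1.36e-26). MT2_Mm, the long terminal repeat that acts as its promoter, had 323 and 319 CPM with hairpin 1, 236 and 173 CPM with hairpin 2 and 50.8 and 46.6 CPM in the controls, a log2 fold change of 2.72 ± 0.09. Both elements had groups that did not overlap, with hairpin 1 highest. A related repeat, MT2B1, had 114 and 115 CPM with hairpin 1 and 38.6 and 33.3 CPM in the controls (1.67 ± 0.07, log2), the only one called higher of 5 other MT2 families, of which MT2B was called lower. RLTR6B_Mm had 49.8 and 40.2 CPM with hairpin 1 and 9.90 and 6.67 CPM in the controls (2.43 ± 0.13, log2).

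All 6 tested families of young LINE-1 elements were higher, with a median log2 fold change of 0.64. L1Md_T had 852 and 895 CPM with hairpin 1, 802 and 909 CPM with hairpin 2 and 543 and 514 CPM in the controls, with a log2 fold change of 0.72 ± 0.05. The hairpins overlapped for L1Md_T, and only 1 of the 6 young LINE-1 families differed between them, lower with hairpin 1. Of 22 tested IAP families, 9 were higher and 1 lower, and the first count was 5 by DESeq2, without control replicate 2 or without hairpin 1 replicate 2. At least a 1.5-fold change was seen in 64 elements that were higher and 13 that were lower, and at least a 2-fold change in 29 and 4. Of those named as lower, Chap1_Mam, a DNA transposon, had 7.26 and 7.34 CPM with hairpin 1 and 13.1 and 15.0 CPM in the controls (-0.94 ± 0.14, log2), and the log2 fold changes of MTEa, AmnSINE1, ZP3AR, RLTR20A4 and MTB lay between -0.43 and -0.35. How many elements fell depended on single libraries: 25 without control replicate 1, 39 without hairpin 1 replicate 1, and 29 by DESeq2, against 75.

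**Figure D2:**
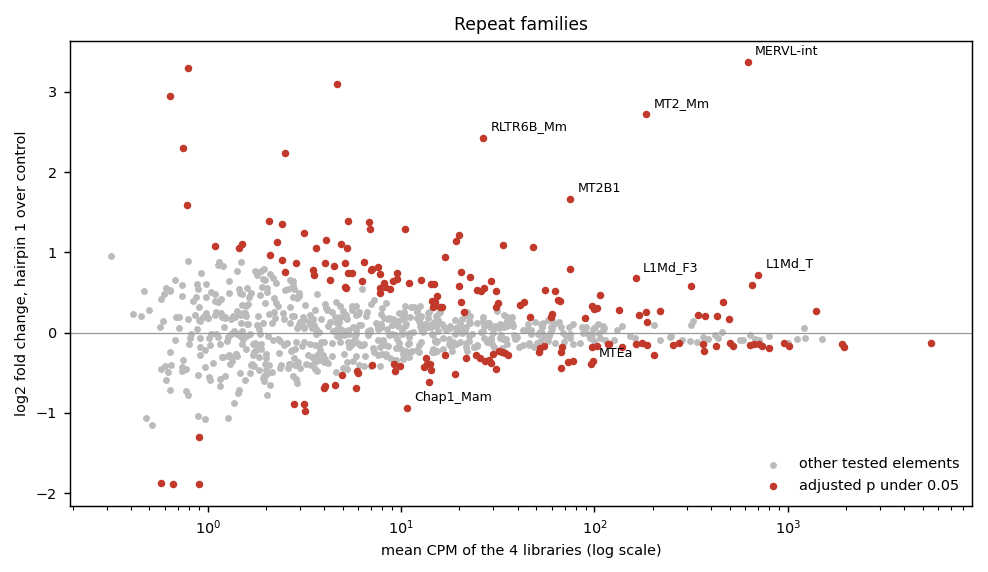
Each point is a repeat family, with its mean CPM over the hairpin 1 and control libraries on the horizontal log axis and its log2 fold change on the vertical axis. MERVL-int and MT2_Mm stand at 3.38 and 2.72, and of the labelled families that fell Chap1_Mam is at -0.94 and MTEa at -0.39.

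Genes that restrain or promote the 2-cell-like state mostly moved downwards, by a small amount in the median and by more in single members. Of 41 tested, 6 were higher and 25 lower, with a median of -0.21, and 6 of the lower ones lie on chromosomes 1 and 19. Sumo2, the gene for a small protein attached to chromatin factors, had 192 and 200.4 CPM with hairpin 1, 362 and 419 CPM with hairpin 2 and 442 and 356 CPM in the controls. Its log2 fold change with hairpin 1 was -1.03 ± 0.07 (edgeR adjusted p = 2.76e-12), and its hairpin 2 libraries lay within the range of the controls. Mga, which directs a variant Polycomb complex, had 113 and 125 CPM with hairpin 1 against 193 and 199 CPM in the controls, and Sirt1, a deacetylase gene, had 90.5 and 95.1 CPM with hairpin 1 against 139 and 137 CPM in the controls. Nelfa, a subunit gene of the negative elongation factor, was among the 6 that rose, with 127 and 123 CPM with hairpin 1 and 80.9 and 83.5 CPM in the controls.

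Among 39 tested genes of retroelement silencing and DNA methylation, 10 were higher and 18 lower. Dnmt3l, a cofactor of DNA methyltransferases, had 513 and 458 CPM with hairpin 1 and 271 and 269 CPM in the controls (0.85 ± 0.05, log2), and the de novo methyltransferase gene Dnmt3b rose by 0.54 ± 0.04. The genes for the demethylating enzymes fell: Tet1 had 234 and 244 CPM with hairpin 1 against 431 and 393 CPM in the controls, and Tet2 had 32.5 and 35.4 CPM with hairpin 1 against 62.6 and 58.7 CPM in the controls. H3f3a on chromosome 1, a histone H3.3 gene, fell by 0.72 ± 0.04, and Hells on chromosome 19, a remodeller needed for DNA methylation, fell by 0.46 ± 0.04, 2 chromosomes whose genes were lower as a whole. Trim66, named in the title of the series and counted in the silencing list, had 9 and 17 counts with hairpin 1 and 2 and 4 in the controls. Its log2 fold change of 2.05 ± 0.69 passed in the fit reported here (adjusted p = 0.0168, edgeR) but not by DESeq2 (adjusted p = 0.0867), without control replicate 1 (0.160) or without hairpin 1 replicate 2 (0.216).

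Naive pluripotency genes fell together. Of 44 tested, 36 were lower and 4 higher, with a median log2 fold change of -0.54, and the lower ones include Nr0b1 itself and 7 on chromosomes 1 and 19. Tfcp2l1, a transcription factor of ground-state pluripotency on chromosome 1, had 93.5 and 96.4 CPM with hairpin 1, 179 and 189.7 CPM with hairpin 2 and 302 and 299 CPM in the controls (-1.66 ± 0.05, log2; edgeR adjusted p = 3.76e-20). Esrrb, the receptor gene whose product DAX1 binds, had 204 and 212 CPM with hairpin 1, 406 and 416 CPM with hairpin 2 and 494 and 513 CPM in the controls (-1.28 ± 0.05). Sall1, a zinc finger repressor gene, had 62.9 and 75.6 CPM with hairpin 1, 139.5 and 139 CPM with hairpin 2 and 184 and 191 CPM in the controls (-1.44 ± 0.06). In these 3 genes hairpin 1 was lowest and hairpin 2 lay between it and the controls, without overlap.

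Tbx3, a T-box factor of the LIF response, went in opposite directions under the hairpins. It had 22.1 and 23.7 CPM with hairpin 1, 102 and 95.4 CPM with hairpin 2 and 67.5 and 63.0 CPM in the controls, log2 fold changes of -1.51 ± 0.08 and 0.59 ± 0.07. Nanog had 282 and 292 CPM with hairpin 1, 495 and 495 CPM with hairpin 2 and 443 and 447 CPM in the controls, with -0.63 ± 0.04 for hairpin 1. Zfp42, the marker also called Rex1, fell by 0.46 ± 0.04 and Sox2 fell by 0.57 ± 0.04 with hairpin 1. Pou5f1 changed least of the core factors (-0.11 ± 0.04; edgeR adjusted p = 0.0246), and that call was lost without either control or without hairpin 1 replicate 2 (adjusted p from 0.0716 to 0.142).

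Genes linked to DAX1 as binding partners, coactivators or corepressors were also mostly lower: of 25 tested, Nr0b1 among them, 15 were lower and 2 higher. Nr0b1, Esrrb, Nr5a2, Pou5f1 and Nanog, all lower, are in the naive list too, so the 2 lists are not separate observations. Of the 15, 2 lie on chromosome 1 and 2 on chromosome 19. Nr5a2, which encodes LRH-1, had 37.7 and 38.2 CPM with hairpin 1 and 72.6 and 72.4 CPM in the controls (-0.93 ± 0.07, log2). Ldb1 on chromosome 19, a LIM-domain binding cofactor, fell by 0.77 ± 0.05, and the retinoid receptor gene Rara fell by 0.54 ± 0.07, while its partner Rxra rose by 0.90 ± 0.11. The steroid synthesis genes that DAX1 represses in the adrenal gland and gonad were little expressed. Of 12 tested in that list, 2 rose and 2 fell, and 7 of the 22 genes written had no counts in either hairpin 1 library. Cyp11a1, the side-chain cleavage enzyme that starts steroid synthesis, had 30 and 24 counts with hairpin 1 and 11 and 9 in the controls, and Amh, the anti-Müllerian hormone gene, had 13 and 6 with hairpin 1 against 3 and 0 in the controls. Both calls were lost when a library was left out (adjusted p of 0.0733 for Cyp11a1, and of 0.216 and 0.256 for Amh). The 2 that fell were Wt1, a gonadal transcription factor (-0.52 ± 0.10), and Sf1, which encodes splicing factor 1 and not the nuclear receptor of the same abbreviation (-0.21 ± 0.04).

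**Figure D3:**
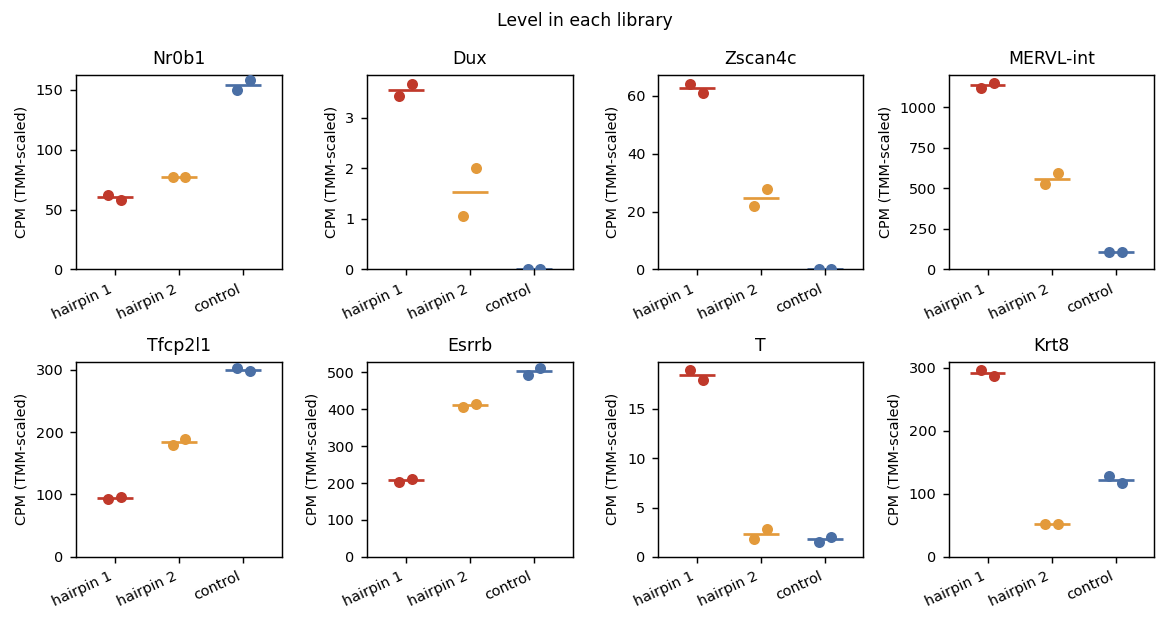
TMM-scaled CPM (vertical axes, from 0) of 8 genes and elements in each library; points are libraries and bars are group means, with hairpin 1, hairpin 2 and control from left to right. Nr0b1, Tfcp2l1 and Esrrb are lowest with hairpin 1, Dux, Zscan4c and MERVL-int are highest with it, T is high with hairpin 1 alone, and Krt8 lies above the controls with hairpin 1 and below them with hairpin 2.

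Primitive streak genes, which mark cells leaving pluripotency toward mesoderm, rose with hairpin 1. Of 18 tested, 10 were higher and 2 lower, with a median of 0.90. T, the Brachyury transcription factor gene, had 271 and 264 counts with hairpin 1, 24 and 37 with hairpin 2 and 23 and 28 in the controls (3.37 ± 0.20, log2; edgeR adjusted p = 9.68e-14). Wnt3, the signal that starts the streak, had 227 and 228 counts with hairpin 1, 32 and 29 with hairpin 2 and 21 and 21 in the controls (3.42 ± 0.20). For T the hairpin 2 and control libraries overlapped, and for Wnt3 hairpin 2 lay just above the controls. Cdx2, a caudal homeobox factor of posterior mesoderm and of trophectoderm, had 138 and 164 counts with hairpin 1, 19 and 26 with hairpin 2 and 24 and 39 in the controls. Sp5, a direct WNT target, had 705 and 713 counts with hairpin 1, 94 and 80 with hairpin 2 and 222 and 241 in the controls, so the hairpins lay on opposite sides of the controls. Nodal, the TGF-beta family signal of the streak, had 1782 and 1733 counts with hairpin 1, 1659 and 1590 counts with hairpin 2 and 875 and 731 counts in the controls, with a difference between hairpins of -0.03 ± 0.06 that did not pass (adjusted p = 0.727, edgeR). Bmp4 went the other way, with 42.1 and 37.7 CPM with hairpin 1 and 77.6 and 76.7 CPM in the controls.

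Other members of these pathways were divided. In the WNT list 8 of 22 were higher and 7 lower. Among the lower ones, Fzd7 on chromosome 1, a WNT receptor gene, fell by 1.01 ± 0.05 (log2), and Sfrp1, a secreted WNT inhibitor, fell by 1.57 ± 0.10. In the Nodal, activin and TGF-beta list 11 of 25 were higher and 7 lower, 3 of these on chromosome 1. The inhibitors of differentiation, helix-loop-helix targets of BMP signals, rose: Id1 had 219.8 and 212 CPM with hairpin 1 and 97.4 and 98.5 CPM in the controls, Id2 rose by 1.58 ± 0.08 and Id3 by 1.48 ± 0.09. Of 24 ERK feedback genes 10 were higher and 5 lower. Dusp4, a phosphatase that turns ERK off, had 80.8 and 82.0 CPM with hairpin 1, 23.1 and 23.2 CPM with hairpin 2 and 29.7 and 30.9 CPM in the controls. Dusp6 and Phlda1 rose by 0.73 ± 0.06 and 1.31 ± 0.09, and Fgf4, the ERK-activating ligand of ES cells, fell by 0.56 ± 0.05.

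Formative and primed epiblast genes, those of the stage that follows naive pluripotency, were higher in 14 of 28 tested and lower in 5. Pim2, a serine kinase gene, had 311 and 325 CPM with hairpin 1, 100.2 and 107 CPM with hairpin 2 and 58.9 and 52.6 CPM in the controls (2.51 ± 0.06, log2; edgeR adjusted p = 6.98e-23). Pou3f1, the epiblast factor also called Oct6, had 131 and 132 CPM with hairpin 1 and 49.8 and 57.6 CPM in the controls. Wnt8a rose by 3.52 ± 0.22, Car4, a carbonic anhydrase gene, by 2.14 ± 0.14, and Nes, the intermediate filament gene of neural progenitors, by 1.88 ± 0.07. In the neural list 7 of 12 were higher and 3 lower. Pax6, a neural and eye factor, fell to 8.38 and 7.27 CPM with hairpin 1, against 20.3 and 19.4 CPM in the controls, and Tubb3 and Sox11, genes of young neurons, rose by 0.48 ± 0.06 and 0.55 ± 0.07. Of 19 retinoic acid genes 9 were higher and 2 lower, the binding protein gene Crabp2 rising by 1.40 ± 0.20.

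Extraembryonic genes were mixed. In the trophectoderm list 9 of 21 were higher and 6 lower. Keratins, the filaments of simple epithelia, rose with hairpin 1: Krt8 had 297 and 287 CPM with hairpin 1, 52.4 and 51.8 CPM with hairpin 2 and 128 and 118 CPM in the controls. Krt18, its filament partner, had 138 and 139.7 CPM with hairpin 1, 24.1 and 20.3 CPM with hairpin 2 and 66.9 and 60.7 CPM in the controls. Krt19 rose by 1.76 ± 0.10, and Cdh3, the P-cadherin gene, fell by 0.95 ± 0.09. In the primitive endoderm list 9 of 24 were higher and 5 lower. Sparc, a matrix protein gene, had 315 and 312 CPM with hairpin 1 and 157 and 156 CPM in the controls, the collagen chaperone gene Serpinh1 rose by 1.19 ± 0.06, the endocytic receptor gene Lrp2 by 0.85 ± 0.06, and the laminin gene Lamc1 on chromosome 1 fell by 0.66 ± 0.05.

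Fibroblast and mesenchymal genes rose with hairpin 1, the list of another cell type that ES cultures can hold. Of 24 tested, 19 were higher and 1 lower, with a median of 1.03, and the list summed to 1850.3 and 1861 CPM with hairpin 1, 1093 and 1096 CPM with hairpin 2, and 1351 and 1332 CPM in the controls. Col1a1, the main fibrillar collagen gene, had 329 and 368 counts with hairpin 1, 33 and 30 with hairpin 2 and 98 and 62 in the controls. Col3a1, another fibrillar collagen gene, had 57 and 68 with hairpin 1, 4 and 4 with hairpin 2 and 28 and 9 in the controls. Both collagens were highest with hairpin 1 and lowest with hairpin 2, with no overlap among the 3 groups. Tagln and Tpm1, actin-binding genes, rose by 1.15 ± 0.06 and 1.15 ± 0.05, Lgals1 (galectin) by 1.15 ± 0.06, Col5a1 by 1.70 ± 0.11 and Vim (vimentin) by 0.95 ± 0.05. The 6 of 30 members not tested had few counts. Mgp had none in these 4 libraries, Lum had 0 and 1 with hairpin 1 and none in the controls, Postn had 1 and 2 with hairpin 1 and 1 and 1 in the controls, and Dcn had 9 and 2 with hairpin 1 and 3 and 6 in the controls. Snai2 had 9 and 6 counts with hairpin 1 and none in the controls, and S100a4 had 15 and 7 with hairpin 1 and 4 and 1 in the controls, both without overlap. In these bulk samples more cells of a type and more RNA per cell cannot be told apart. The part of this shift in the streak and keratin results was not tested.

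The remaining lists were of cell state. Of 30 p53 targets, 24 were higher and 1 lower (median 0.50): Perp, a desmosome and apoptosis gene, had 104 and 97.9 CPM with hairpin 1 and 36.6 and 36.3 CPM in the controls, Plk2 rose by 1.34 ± 0.07 and Ccng1 by 0.70 ± 0.05. Of 38 genes of the integrated stress response, 30 were higher and 2 lower (median 0.39). Ddit4, an inhibitor of mTORC1 that p53 also drives, had 246 and 257 CPM with hairpin 1, 116 and 117 CPM with hairpin 2 and 112 and 109.5 CPM in the controls. Asns, for asparagine synthesis, and Chac1, for glutathione breakdown, rose by 0.63 ± 0.05 and 0.89 ± 0.07. Of 30 tested mitosis genes none was higher and 21 were lower, with a median of -0.18 over all 30. The spindle motor gene Kif11 on chromosome 19 fell by 0.70 ± 0.05, the kinetochore gene Cenpf on chromosome 1 fell by 0.66 ± 0.05, and the topoisomerase gene Top2a on chromosome 11 fell by 0.53 ± 0.04. Of 35 ribosome biogenesis genes 1 was higher and 14 were lower, 9 of these on chromosomes 1 and 19, including Ncl (-0.32 ± 0.03) and Nop58 (-0.40 ± 0.04) on chromosome 1, and 7 were lower when those chromosomes were left out.

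Imprinted genes, expressed from 1 parental allele, were higher in 20 of 36 tested and lower in 4. Cdkn1c, a cell cycle inhibitor gene, had 149 and 142 CPM with hairpin 1, 88.6 and 74.3 CPM with hairpin 2 and 53.9 and 57.7 CPM in the controls. Igf2, the growth factor gene, had 73.3 and 74.9 CPM with hairpin 1, 10.2 and 10.9 CPM with hairpin 2 and 30.4 and 28.3 CPM in the controls, on opposite sides of the controls under the 2 hairpins. Peg10 rose by 0.82 ± 0.04 and Grb10 by 0.87 ± 0.05. In the interferon and antigen presentation list 11 of 24 were higher and 4 lower. H2-K1, a class I antigen gene, had 52.1 and 56.5 CPM with hairpin 1 and 27.4 and 26.3 CPM in the controls, its partner gene B2m rose by 1.23 ± 0.14, the peptide transporter gene Tap1 by 1.51 ± 0.19 and the antiviral gene Bst2 by 0.88 ± 0.06.

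Genes of a germline list were higher in 9 of 25 tested and lower in 1, with Ddx4 (vasa) at 0.45 ± 0.10 and Tex11, which fell, at -0.94 ± 0.20. The orphan receptor gene Nr6a1, at 73.8 and 77.0 CPM in the controls, rose by 0.62 ± 0.06. Of 6 tested maternal genes 1 was higher and 3 were lower. Khdc3 and Ooep are parts of the subcortical maternal complex of the oocyte. Khdc3 had 211 and 211 counts with hairpin 1, 1219 and 1220 with hairpin 2 and 1077 and 953 in the controls, and Ooep had 319 and 339 with hairpin 1, 825 and 848 with hairpin 2 and 960 and 1071 in the controls. The egg coat gene Zp3 was the one that rose, by 1.57 ± 0.19. Glycolysis and hypoxia genes were 7 higher and 10 lower of 35, the lactate dehydrogenase gene Ldhb at -1.20 ± 0.05 and the lactate exporter gene Slc16a3 at 0.70 ± 0.05. Sterol synthesis genes were 3 higher and 5 lower of 26, shares below those of all genes, with Hmgcs1, an early enzyme gene of the pathway, at -0.23 ± 0.05. Of 15 tested histone genes 5 were higher and 2 lower, Hist1h1c at 1.33 ± 0.27 and H1f0 at -0.72 ± 0.08.

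**Figure D4:**
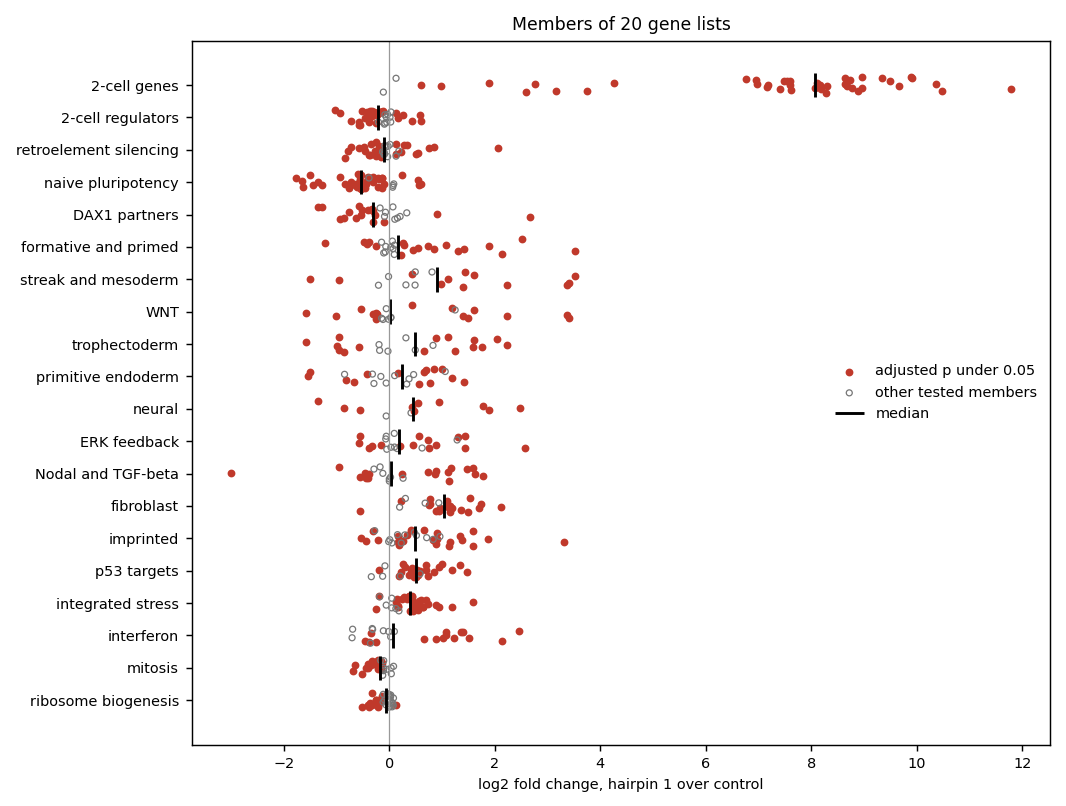
Log2 fold change, hairpin 1 over control (horizontal axis), of each tested member of 20 gene lists; filled points passed an edgeR adjusted p of 0.05, open points did not, and black bars are medians. The 2-cell genes lie apart at a median of 8.08, where the 13 members with 0 control counts are drawn at fitted values that depend on the prior count, while the naive list has a median of -0.54 and the fibroblast list of 1.03.

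Of the 12 largest falls, 2 genes stood in the lists above, Inhbb among TGF-beta genes and Khdc3 among maternal genes. Skor1, a SKI-family corepressor gene, had 43 and 33 counts with hairpin 1, 101 and 51 with hairpin 2 and 406 and 406 in the controls (-3.43 ± 0.19, log2; edgeR adjusted p = 3.48e-14). Inhbb on chromosome 1, an activin subunit gene, had 163 and 215 with hairpin 1, 1094 and 1093 with hairpin 2 and 1525 and 1487 in the controls (-3.01 ± 0.09). Alg13, an X-linked gene of protein glycosylation, had 465 and 521 with hairpin 1, 2789 and 2918 with hairpin 2 and 3804 and 3567 in the controls (-2.92 ± 0.06). Skor1 was low under both hairpins, whereas Inhbb and Alg13 were low mainly under hairpin 1. Alg13 was also low in the double knockdown libraries, at 300 and 318 counts, against 3476 and 2448 in their controls. The remaining falls of that group, in Atp1a4, Skida1, Sema5b, Khdc3, Col13a1, Igsf21, Mras, Grin1os and Prmt8, ranged from -2.60 to -1.86. Among them Sema5b, a semaphorin gene, had 28 and 27 counts with hairpin 1, 147 and 133 with hairpin 2 and 139 and 168 in the controls, and Mras, a RAS-family gene, had 210 and 198 with hairpin 1, 655 and 587 with hairpin 2 and 779 and 743 in the controls.

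Hairpin 1 and hairpin 2 were compared directly in the same fit. With hairpin 1, 2670 of 14017 genes (19%) were higher and 2516 (17.9%) lower than with hairpin 2, and of 827 elements 36 (4.35%) were higher and 181 (21.9%) lower. The element counts were 23 higher without hairpin 2 replicate 1, 109 lower without hairpin 2 replicate 2, and 106 lower by DESeq2. Of the 6259 genes called against the controls, 3715 (59.4%) also differed between the hairpins. In 3590 of these the difference from hairpin 2 had the sign of the hairpin 1 change. Both contrasts use the same hairpin 1 libraries, which favours equal signs in advance. Genes such as Igf2, with hairpin 2 on the other side of the controls, are also counted there. Hairpin 2 shares its controls with hairpin 1, so its own counts, 1674 genes higher (11.9%) and 1850 lower (13.2%), are not independent of these.

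The 2-cell genes rose under both hairpins and further under hairpin 1. Of the 43 tested, 40 were higher and 1 lower with hairpin 2 against the controls, while 32 were higher with hairpin 1 than with hairpin 2 and none was lower. The difference was 1.33 ± 0.10 for Zscan4c, 1.21 ± 0.34 for Dux and 1.02 ± 0.05 for MERVL-int on the log2 scale. Over all tested elements the median against the controls was 0.03 with hairpin 1 and 0.19 with hairpin 2, and 22 of 25 SINE families were lower with hairpin 1 than with hairpin 2. The count of SINE families that fell against the controls, 9, ran from 1 to 19 when single control libraries were left out.

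The lists also differed between the hairpins. Of 44 naive genes, 34 were lower with hairpin 1 than with hairpin 2 and 2 higher. Against the controls 14 rose and 15 fell with hairpin 2. Of 24 fibroblast genes, 19 were higher with hairpin 1 than with hairpin 2, while 4 rose and 12 fell with hairpin 2 against the controls. Of 18 streak genes, 11 were higher with hairpin 1 than with hairpin 2 and 3 lower, and against the controls 4 rose and 4 fell with hairpin 2. The largest differences toward hairpin 1 included Col3a1 (3.78 ± 0.46), Cav1 of caveolae (3.45 ± 0.34), Col1a1 (3.32 ± 0.18) and T (2.98 ± 0.19), and those toward hairpin 2 were led by Alg13 (-2.68 ± 0.06), Inhbb (-2.68 ± 0.09) and Khdc3 (-2.67 ± 0.08). Of 30 p53 targets 24 also rose with hairpin 2, 16 were higher with hairpin 1 than with hairpin 2 and 5 lower.

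**Figure D5:**
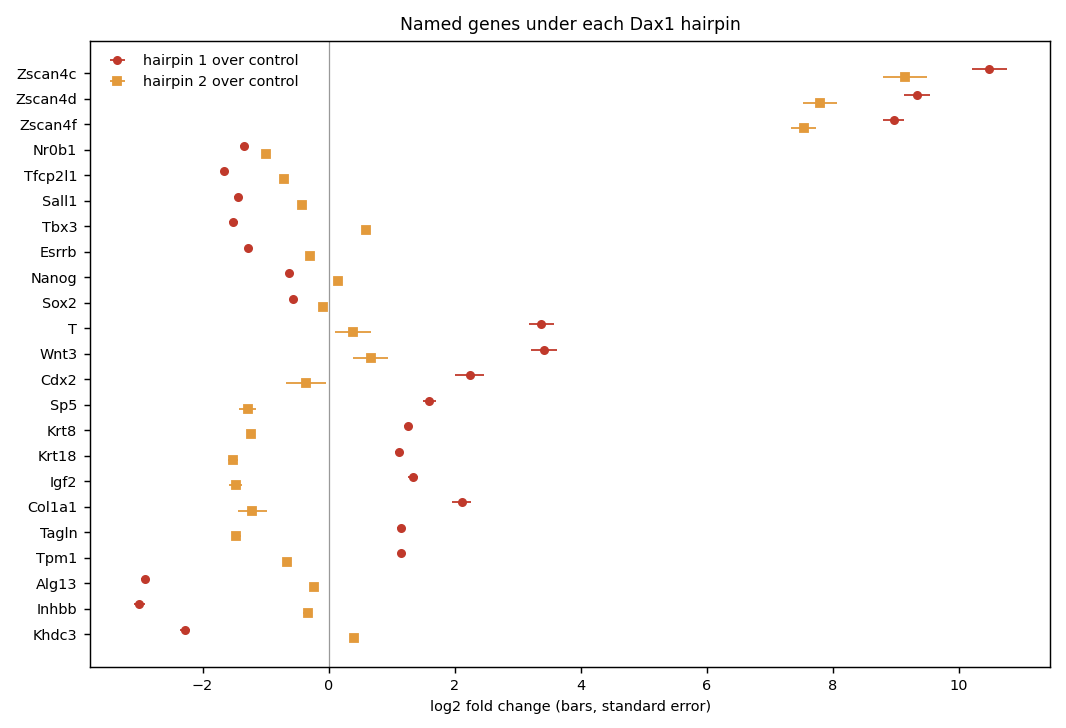
Log2 fold change over the shared controls (horizontal axis, bars are SE) of 23 named genes for hairpin 1 (circles) and hairpin 2 (squares). The Zscan4 genes are high under both, Tbx3, Nanog, Cdx2, Sp5, Krt8, Krt18, Igf2, Col1a1, Tagln, Tpm1 and Khdc3 lie on opposite sides of 0, and Alg13 and Inhbb are at -2.92 and -3.01 with hairpin 1.

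The comparison with the double knockdown of Dax1 and Dux asks which hairpin 1 changes are also seen when Dux is lowered with Dax1, although the labels do not say which Dax1 hairpin it used. Dux had 2 and 0 counts in the double knockdown and 0 and 0 in its controls, so its knockdown is not visible against them. The effects were compared as an interaction over 8 libraries in a fit of 10, where 154 of 14416 genes (1.07%) were higher and 177 (1.23%) lower in the hairpin 1 effect, with 10 of 834 elements (1.2%) higher and none lower. These counts rest on the double knockdown controls, which differed from each other far more than other replicates, and without control replicate 1 the counts became 995 higher and 850 lower, and without control replicate 2 1727 and 1860. Without any 1 of the other 6 libraries they were 14 to 27 higher and 12 to 36 lower. The double knockdown also carried the Y-linked difference, at 174 and 153 CPM against 0.360 and 0.900 CPM in its controls, and a chromosome 19 median of -0.53.

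MERVL-int had 184 and 165 CPM in the double knockdown and 101 and 74.5 CPM in its controls. Its hairpin 1 effect of 3.38 was larger than its double knockdown effect of 0.99 by 2.36 ± 0.18 (SE; edgeR adjusted p = 6.28e-04), and that call held with each of the 8 libraries left out. MT2_Mm and MT2B1 behaved in the same way, with differences of 2.40 ± 0.18 and 1.61 ± 0.15. Zscan4d had 17 and 16 counts in the double knockdown and 11 and 0 in its controls. Its difference, 7.67 ± 1.22, passed (adjusted p = 0.0173, edgeR) in the full fit and in 1 of the 8 fits with a library left out. Zscan4c, with 31 and 30 counts in the double knockdown and 4 and 0 in its controls, did not pass (adjusted p = 0.0561, edgeR). Dux had 49 and 54 counts with hairpin 1 and 2 and 0 in the double knockdown. It had none in either control group, so its difference could not be estimated (SE of 11441 on the log2 scale). Tfcp2l1 fell further with hairpin 1 than in the double knockdown, with a difference of -1.29 ± 0.12, and that call held with each library left out. Nes rose with hairpin 1, at 112 and 109 CPM against 28.8 and 31.3 CPM in the hairpin 1 controls. The double knockdown controls lay above the hairpin 1 libraries, at 183 and 188 CPM, a level set across separate tables. In the double knockdown Nes had 172 and 184 CPM and did not pass against those controls (adjusted p = 0.664, edgeR). Its difference of 1.92 ± 0.12 passed with each library left out.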

How the data were processed

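RNA-seq read counts per gene and per repeat element, as whole numbers deposited by the authors, were used as they stand in 1 table per experiment, per the file headers. Per the submitters' processing notes, tools used in the series include Trim Galore, HISAT2 2.1.0 and Cufflinks 2.2.1, with build mm10. How reads were counted, and on which annotation, is not given in the sources used here, nor are strandedness and the handling of multimapping reads, so near-identical copies and overlapping or antisense genes are uncertain. The 25574 rows held 24394 genes, 1153 elements and 27 rows whose names had become dates, which entered library totals and were not tested.

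Samples were grouped by their titles. Hairpin 1, hairpin 2 and control libraries (6, with 3 residual degrees of freedom) were fitted together with edgeR 4.0.16 in R 4.3.3, using TMM scaling, its expression filter and the quasi-likelihood test, with Benjamini-Hochberg adjustment over all genes and elements. The comparison with the double knockdown was an interaction over 10 libraries. Library totals of the 4 main libraries ran from 13958105 to 15139518. Replicate counts differed by more than sampling noise in every group, with a chi-square per degree of freedom of 2.43 for hairpin 1, 2.68 for hairpin 2 and 2.27 for control, and of 5.53 for the double knockdown and 41.8 for its control. Confidence intervals of ratios are exact 95% intervals, and these and the floor of 3 counts over a group cover counting error only.

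Alternatives were DESeq2 1.42.0 as a test and as size factors, no filter, a replicate block, a 1.5-fold minimum, elements left out, the 4 libraries alone and each library left out. Leaving out genes of chromosomes 1, 19 and Y was added after the data were seen. The fits were tested on simulated data. The comparison, the gene lists and the tests were chosen with earlier results of these data known. Genes were named by rule: a set of known genes, the 12 largest rises and falls with a mean of at least 2 CPM, up to 6 called members of each list (10 for the 2-cell list) and 6 elements each way by adjusted p, and the 6 largest differences each way from hairpin 2 and from the double knockdown. Amh, Cyp11a1, Wt1 and Sf1 are the called members of their list. Promoter sequences are from RefSeq on GRCm38.p6.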

Additional observations from a re-analysis of the deposited data

Results flagged for a closer look

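The named genes and elements below had a hairpin 1 effect that differed from the effect of the double knockdown at an edgeR adjusted p under 0.05, as a log2 difference of the first minus the second. MERVL-int differed by 2.36, with 3.38 for hairpin 1 and 0.99 for the double knockdown. Among other elements the difference was 2.40 for MT2_Mm, 1.61 for MT2B1, 2.29 for RLTR6B_Mm and 0.68 for L1Md_T. For MERVL-int, MT2_Mm, MT2B1, Car4, Grb10, Nes, Tfcp2l1 and Tnik the call held without each of the 8 libraries in turn. Control levels differed between the experiments in some of these. Mean CPM of Car4 was 5.12 in the hairpin 1 controls, 22.6 with hairpin 1 and 22.8 in the double knockdown controls. For Grb10 these were 219, 401 and 477, and for Nes 30.1, 111 and 185. The 2 control groups were closer for MERVL-int (109 and 87.8) and MT2_Mm (48.7 and 48.2). The part of control levels in the differences was not tested. The other calls were lost without at least 1 library. Most of them were lost whichever hairpin 1, hairpin 1 control or double knockdown library was left out. Each of the other calls kept its sign in all 8 fits.

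Among 2-cell genes the difference was 7.36 for Zscan4a, 7.73 for Zscan4b, 7.67 for Zscan4d, 6.32 for Zscan4f and 6.59 for Gm6763. These 5 calls held in 1 of the 8 fits, and the double knockdown controls had 4 to 17 counts of the Zscan4 genes in replicate 1 and none in replicate 2. Among Y-linked genes the difference was -6.26 for Ddx3y and -2.93 for Eif2s3y. Among the remaining genes the difference was positive, at 0.62 for Bst2, 4.90 for Cacna1s, 2.13 for Car4, 0.62 for Dnmt3l, 0.59 for Dusp6, 3.45 for Fam124a and 1.11 for Grb10. It was also 0.78 for H2-K1, 0.85 for Id1, 0.94 for Id3, 1.92 for Nes, 2.27 for Pim2, 1.39 for Pou3f1 and 1.04 for Slc16a3. It was also 2.19 for Wnt3 and 1.92 for Wnt8a. It was negative, at -1.59 for Bmp4, -1.05 for Cdh3, -0.65 for Cenpf, -1.01 for H1f0, -3.51 for Hal, -2.19 for Inhbb and -0.64 for Lamc1. It was also -1.54 for Ldhb, -1.63 for Tbx3, -1.29 for Tfcp2l1, -2.80 for Tnik and -0.94 for Vim.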

How the results depend on the processing

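Requiring at least a 1.5-fold change left 1819 genes higher and 744 lower with hairpin 1 than in the controls, and 64 elements higher and 13 lower. By DESeq2, 29 elements were lower than in the controls and 106 lower than with hairpin 2, and 17 elements were higher and 1 lower in the hairpin 1 effect than in the double knockdown effect, as they were with no filter on low counts. Leaving out each library gave 2390.0 to 3240.0 genes higher and 2444 to 3165 lower than in the controls, 80.0 to 111 elements higher and 25 to 79 lower. Against hairpin 2 it gave 23 to 37 elements higher and 109 to 188 lower. Against the double knockdown effect it gave 14 to 1727 genes higher and 12 to 1860.0 lower, and 3 to 72 elements higher and 0 to 30.0 lower. A lone library left in a group is assumed to vary like the others. Replicate numbers were not used as pairs in the main fits. The correlations of same-numbered deviations were 0.04 for hairpin 1 with control, -0.03 for hairpin 2 with control and 0.17 between the hairpins. With a replicate block, 3299 genes were higher and 3206 lower than in the controls, with 117 and 79 elements, 2821 genes were higher and 2745 lower than with hairpin 2, and 83 genes were higher and 119 lower than in the double knockdown effect. For the hairpin 1 change against the controls, 146 named genes had 1865 values under the alternatives. Of these, 1855 kept their direction and call, 10 lost the call, in Trim66, Pou5f1, Cyp11a1 and Amh, and 0 reversed. The differences from the double knockdown effect are not among these values. Of 990.0 counts within lists, 905 were within 1.5 times the reported count.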
